A study of Mus musculus with 10 samples.

Results

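The genes described here encode the proteins of the cytosolic ribosome. Members were all genes of the authors' expression matrix whose symbol is Rpl or Rps followed by a number and at most a short suffix, leaving out names of pseudogenes, which gave 79 of 15686 genes, 48 of the large subunit and 31 of the small subunit. The count tables hold 85 genes with such names among 55487. The 6 that are not in the matrix, Rps4l, Rps12l1, Rpl32l, Rpl6l, Rps3a2 and Rps3a3, were not counted as members. Large-subunit proteins are named RPL and small-subunit proteins RPS, and the suffixes x and l mark the X-linked copy of a pair and a ribosomal protein-like paralogue.

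A ribosome needs its proteins in nearly equal numbers, and their genes are short, are transcribed strongly in dividing cells and are usually described as a co-regulated set. Many of their mRNAs begin with a C followed by a run of pyrimidines, the terminal oligopyrimidine or TOP motif, through which translation of these mRNAs follows growth signals. Their introns carry many small nucleolar RNAs (snoRNAs), which guide the chemical modification of ribosomal RNA. In blood formation the set is known for Diamond-Blackfan anaemia, in which loss of 1 copy of a ribosomal protein gene impairs red cell production.

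Nuclear RNA was sequenced at 5 stages of the path from mouse embryonic stem (ES) cells to blood, all from the HM-1 cell line, with 2 libraries per stage. ES cells were grown undifferentiated with LIF. Hemangioblasts (HB) were FLK1+ cells sorted from embryoid bodies formed over 3 days in serum, and these were plated in blast culture, where hemogenic endothelium 1 (HE1, KIT+ TIE2+ CD41-), hemogenic endothelium 2 (HE2, KIT+ TIE2+ CD41+) and hematopoietic progenitors (HP, KIT+ TIE2- CD41+) were sorted. No gene was targeted in these samples, and the study describes the libraries of a stage as biologically independent replicates. With 2 per stage, the p-values rest on the spread between these libraries. Between 24920434 and 58782055 fragments were assigned to genes per library, rRNA was depleted, and the enrichment of nuclei means that the values below are of RNA held in or near the nucleus rather than of the whole cell.

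The marker lists followed the labels for ES and HB, while those of the later stages overlapped between neighbouring stages. The summed level of 5 ES genes (Pou5f1, Nanog, Zfp42, Esrrb and Dppa5a) was 2266 and 2226 CPM (counts scaled by the effective total of each library, with TMM factors) in the ES libraries and 1.75 to 110 CPM elsewhere, and that of 5 HP genes (Itga2b, Runx1, Spi1, Gfi1b and Ptprc) was 1126 and 942 CPM in HP and 871 and 1138 CPM in HE2, so it did not separate HP from HE2. The list of HB markers was at 1428 and 1751 CPM in HB and at 1277 and 734 CPM in HE1. Its genes did not contribute alike to this sum, since 4 of the 5 fell between these stages, and the median log2 change over the 5 was -4.96. The second HE1 library stood apart in that list, with 79.3 CPM of the ES genes against 6.81 CPM in the first, and in cardiac genes (Tnnt2, Nkx2-5, Myl7 and Actc1), with 90.9 against 24.9 CPM. No marker of these lists was at 0 throughout a stage. The 2 libraries of a stage differed beyond counting error in every stage, with a chi-square per degree of freedom from 2.99 in ES to 60.8 in HE2.

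All 79 members passed the filter on low counts, and 75 of them had at least 39.5 CPM in every library. Summed over the set, the members took 3.47% and 3.37% of all fragments in the ES libraries, with HB at 3.05% and 4.07%, HE1 at 2.03% and 2.39%, HE2 at 2.79% and 3.11%, and HP at 3.33% and 2.36%. The share was therefore 3.42% ± 0.0681 for ES (mean ± SD, n = 2), with 3.56% ± 0.723 for HB, 2.21% ± 0.256 for HE1, 2.95% ± 0.222 for HE2 and 2.85% ± 0.683 for HP. The HE1 libraries had lower shares than every library of ES, HB and HE2, and the first lay below both HP libraries, while the second was 2.39% against 2.36% in the lower HP library. The 2 libraries of HB and those of HP lay further apart than those of any other stage.

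**Figure D1:**
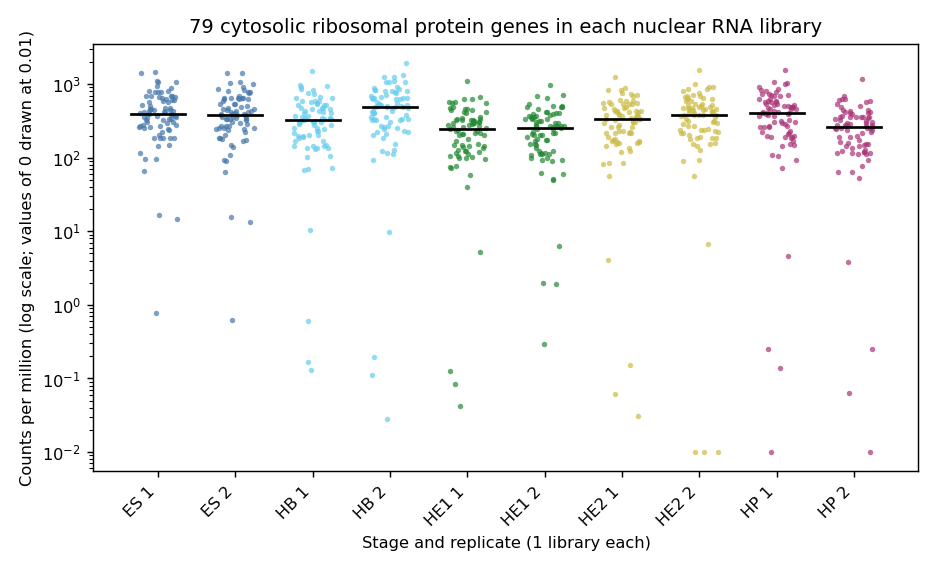
Level of the 79 members in each library, in CPM on a log axis, with 1 point per gene, a bar at the median of the members and values of 0 drawn at 0.01. The medians run from 247 CPM in HE1 replicate 1 to 485 CPM in HB replicate 2, and Rpl29, Rpl39l and Rpl3l lie below the rest, joined after ES by Rpl10l.

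Per kilobase of exon, the most abundant members were Rpl4 at 691 CPM per kb, Rpl8 at 679.9, Rps15 at 642, Rpl36 at 600.5 and Rps4x at 541, each as a mean over the 10 libraries. RPL4 and RPL8 lie in the core of the large subunit near the peptidyl transferase centre, and RPS15 at the decoding side of the small one. The lowest were Rpl3l at 0.27 CPM per kb, Rpl39l at 3.96, Rpl29 at 7.03, Rpl10l at 13 and Rpl34 at 25.9. Exon length here is the union over all transcripts, retained introns included, which lowers the level per kb of members such as Rpl34 and Rpl30, and with the counting options stated fragments that align to several places are left out. Levels of members with processed copies are therefore uncertain, and the part of such copies in the low levels was not tested.

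Start sites are shown for Rps27l, Rpl10l and Rpl39l, some of the members that departed from the set, beside their partners and other TOP members, to let the first bases be compared. RefSeq start sites of build GRCm38.p6 were matched to 60 members. A TOP start, scored on the transcribed strand as a C at the start followed by at least 4 bases that are C or T, was found in 12 of them (20%) against 3.01% of 27025 genes with a start site. The 12 were Rpl14, Rpl15, Rpl28, Rpl35, Rpl35a, Rpl38, Rps10, Rps15a, Rps18, Rps21, Rps27 and Rps6. Annotated starts can be bases away from the start used by the cell, which was not measured here. Annotations also differ, as for Rpl39, whose RefSeq start lies 180 bases inside the outermost Ensembl start. Each window holds 10 bases before the start and 20 from it, 30 in all, with a TOP run in capitals.
Rps21 (chr2:180257369-180257398, plus strand): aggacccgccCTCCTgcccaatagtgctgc
Rps27 (chr3:90213629-90213658, minus strand): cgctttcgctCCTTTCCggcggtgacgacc
Rpl38 (chr11:114668570-114668599, plus strand): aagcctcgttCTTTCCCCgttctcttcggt
Rps27l (chr9:66946076-66946105, plus strand): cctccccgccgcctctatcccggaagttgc
Rpl10 (chrX:74270806-74270835, plus strand): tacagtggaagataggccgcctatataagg
Rpl10l (chr12:66284382-66284411, minus strand): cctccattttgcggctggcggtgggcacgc
Rpl39 (chrX:37085203-37085232, minus strand): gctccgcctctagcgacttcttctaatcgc
Rpl39l (chr16:10170218-10170247, plus strand): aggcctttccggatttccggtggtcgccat
The 3 paralogues Rps27l, Rpl10l and Rpl39l had no TOP run at the annotated start, and of their partners only Rps27 had one. From HB to HE1 the median log2 change was -0.76 in the 12 members with a TOP start and -0.73 in the other 48 with a start site, and from ES to HP it was -0.18 and -0.33. These differences were not tested. The other 48 include Rpl27a, whose annotated start opens a run of 16 pyrimidines with a T rather than a C, so TOP starts may have been missed among them.

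The first comparison asked how the set differed between HB and ES. The median log2 fold change of the members was 0.02 beside 0.00 over all 22596 genes tested, and 45 were above 0 and 34 below. Its direction turned on single libraries, at 0.27 without HB replicate 1 and -0.28 without HB replicate 2. By the quasi-likelihood test of edgeR, adjusted over all genes by the Benjamini-Hochberg method, 6 members fell, Rpl10, Rpl10l, Rpl30, Rpl39l, Rps27l and Rps4x, beside 22.6% of all tested genes. None rose at an adjusted p under 0.05, where 17.8% of all genes did, and none rose at an unadjusted p under 0.05 either, where 21.7% of all genes did. limma-voom and DESeq2 also called no member higher, whereas 2 rose with total counts, 3 with no filter on low counts, 3 with only the 4 libraries compared and 1 without HB replicate 1. The number that fell was 11 without HB replicate 2, 2 without HB replicate 1 and 13 with no filter or with only the 4 libraries. Both HB libraries lay below both ES libraries for 20 members, against 41% of all tested genes.

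Rpl10 (chrX:74270812-74273135) encodes a large-subunit protein that joins the particle late, at the step that makes it competent for translation. It was at 774 and 769.9 CPM in ES, with HB at 354 and 485, HE1 at 314 and 248, HE2 at 371 and 428, and HP at 424 and 296. No later library reached the ES level. The log2 fold change was -0.88 ± 0.22 from ES to HB (SE, adjusted p = 0.00903 by edgeR) and -1.10 ± 0.22 from ES to HP (adjusted p = 0.00193). Rps4x, the X-linked small-subunit gene, was at 1456 and 1436 CPM in ES, where it was the member with the highest CPM, and at 729.5 and 1058 CPM in HB, with a log2 fold change of -0.69 ± 0.25 (adjusted p = 0.0447). Rpl30 was at 293 and 290.0 CPM in ES and at 134 and 184 CPM in HB, and fell by 0.87 on the log2 scale (SE 0.19, adjusted p = 0.00411).

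Rps27l encodes a paralogue of RPS27 and is known as a target of p53. It was at 188 and 174 CPM in ES, with HB at 69.0 and 114, HE1 at 76.5 and 93.7, HE2 at 122 and 143, and HP at 149 and 93.5. The fall from ES to HB was -0.98 ± 0.26 on the log2 scale (adjusted p = 0.0121). From HB to HE1 its libraries overlapped and its log2 difference was -0.10 ± 0.26 (adjusted p = 0.783), where its partner Rps27 fell by 1.07 (SE 0.24, adjusted p = 0.00807). The difference between partners was not tested.

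Rpl10l (chr12:66283379-66284401) and Rpl39l (chr16:10170226-10174911) are autosomal paralogues of the X-linked Rpl10 and Rpl39, both known for expression in the testis. Rpl10l had 3762 and 2213 counts in ES, with HB at 18 and 4, HE1 at 3 and 60, HE2 at 1 and 0, and HP at 6 and 2. Rpl39l had 936 and 549 counts in ES, with HB at 4 and 1, HE1 at 1 and 9, HE2 at 2 and 0, and HP at 0 and 0. Both genes were thus nearly confined to the ES libraries, as were the ES markers. By the ratio of effective library totals, Rpl10l was 196-fold higher in ES than in HB (95% exact interval 129 to 313, counting error only) and 616-fold higher in ES than in HP (interval 313 to 1428), and Rpl39l was 214-fold higher in ES than in HB (interval 91.5 to 660.1). Against the HP libraries, both at 0 counts, Rpl39l was at least 408-fold higher in ES, with a floor of 3 counts over the group. The adjusted p by edgeR was 7.28e-05 for Rpl10l and 6.42e-05 for Rpl39l in HB against ES. Of the 63 counts of Rpl10l in HE1, 60 came from the library that also held 79.3 CPM of ES markers. The part of those cells in the value was not tested.

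**Figure D2:**
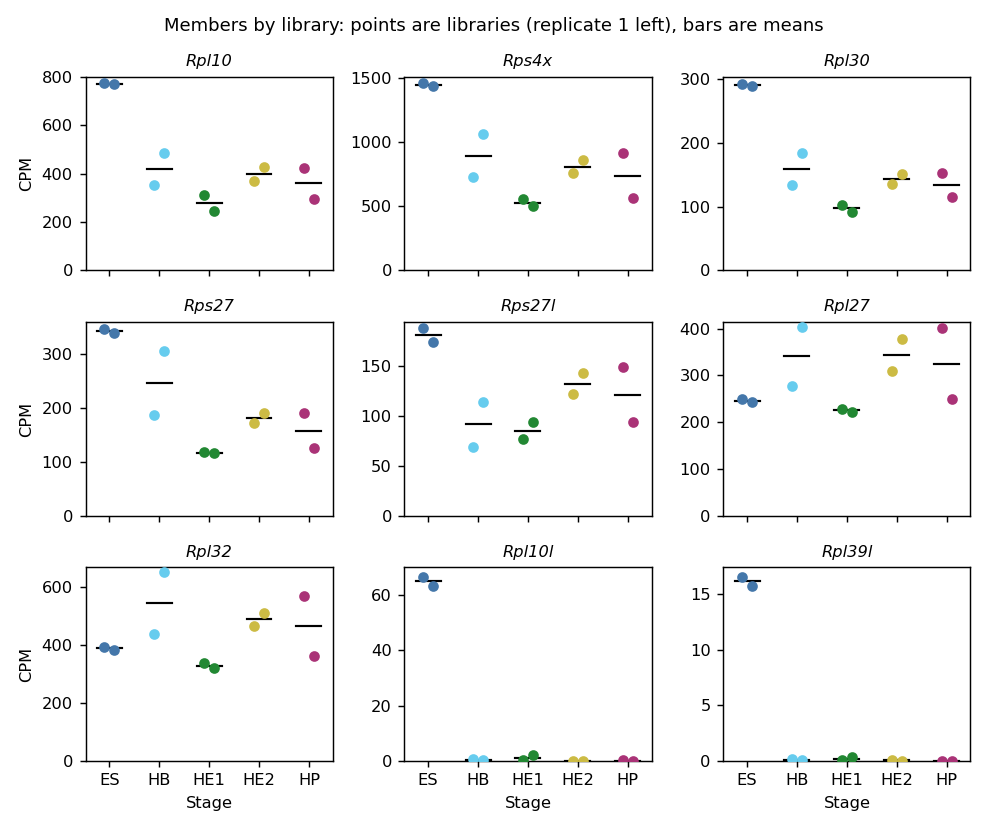
Level of 9 members in CPM by stage, with a point per library and a bar at the mean of 2. Rpl10, Rps4x and Rpl30 are highest in both ES libraries, Rpl10l and Rpl39l are near 0 after ES, and Rpl27 and Rpl32 are no lower in HB than in ES.

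The largest rises from ES to HB were 0.49 for Rpl32, 0.47 for Rpl27, 0.42 for Rpl26 and 0.38 for Rpl15 on the log2 scale, and none passed the test (adjusted p from 0.125 to 0.19). Rpl27 was at 249 and 243 CPM in ES and at 276 and 404 CPM in HB. Both HB libraries were thus above both ES libraries, but replicate 1 by less than the HB libraries differed from each other. Of the paralogue pairs, Rpl22 and Rpl22l1 were at log2 0.07 and 0.00 and Rpl7 and Rpl7l1 at 0.17 and 0.03, with adjusted p from 0.597 to 1. Rps4l, which lies outside the matrix, fell from 204 and 191 CPM in ES to 45.1 and 46.7 CPM in HB, with a log2 fold change of -2.10 ± 0.29 (adjusted p = 0.000239).

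The second comparison asked how HE1 differed from HB, and here most of the set fell. Of the 79 members, 53 fell, 32 of the large and 21 of the small subunit, beside 14.8% of all tested genes. None rose at an adjusted p under 0.05, beside 17.5% of all genes, and none at an unadjusted p under 0.05, beside 23.6%. limma-voom and DESeq2 called 56 and 67 members lower and none higher, whereas 2 rose with no filter on low counts and 2 without HE1 replicate 1. The median log2 fold change was -0.74, a ratio of 0.599, against 0.04 over all genes. Both HE1 libraries were below both HB libraries for 75 members, against 32.6% of all tested genes. These are bulk samples, and CPM are relative to the rest of a library. Fewer cells with strong expression, less RNA per cell and more of other RNAs therefore cannot be told apart. Other RNAs moved between these stages too: 4 smooth muscle genes (Acta2, Tagln, Myh11 and Cnn1) summed to 17.2 and 13.2 CPM in HB and to 622 and 939 CPM in HE1, 5 erythroid genes to 9.98 and 11.4 CPM in HB and to 537 and 260.4 CPM in HE1, 4 cardiac genes to 17.5 and 20.6 CPM in HB and to 24.9 and 90.9 CPM in HE1, and 8 nuclear-retained RNAs to 5338 and 4557 CPM in HB and to 6313 and 10176 CPM in HE1. Their part in the fall of the members was not tested.

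The largest falls were those of Rpl22, Rps27, Rps10 and Rpl10a. Rpl22, whose protein is also known for a part in T-cell development, was at 205 and 327 CPM in HB and at 128 and 122 CPM in HE1, a log2 fold change of -1.09 ± 0.25 (adjusted p = 0.00845). Rps10 was at 253 and 337 CPM in HB and at 145 and 152 CPM in HE1 (-0.99 ± 0.21, adjusted p = 0.00619). Rpl10a was at 528 and 646 CPM in HB and at 326 and 269 CPM in HE1 (-0.98 ± 0.21, adjusted p = 0.00554). The smallest called fall was that of Rpl7l1, -0.51 ± 0.17 (adjusted p = 0.0415). The called members therefore spanned less than 1 log2 unit.

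Of the 26 members that did not pass, 23 had values below 0 and 3 above. The 3 were Rpl3l, Rpl10l and Rpl39l, at log2 differences of 2.46, 1.68 and 1.19 with adjusted p of 0.121, 0.169 and 0.381, and each rested on few counts. Rpl3l, the paralogue of Rpl3 known from skeletal and heart muscle, had 5 and 7 counts in HB, 2 and 58 in HE1, and 5 and 0 in HE2. Its 58 counts were in the HE1 library with 90.9 CPM of cardiac markers, and their part in the value was not tested. Its partner Rpl3 was at 851 and 1073 CPM in HB and at 563 and 495 CPM in HE1 (-0.86 ± 0.19, adjusted p = 0.00767).

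The count of falls turned on single libraries. It was 2 without HB replicate 2 and 71 without HB replicate 1, and 26 without HE1 replicate 1 and 15 without HE1 replicate 2, while the median log2 fold change of the members lay between -1.02 and -0.51 with any 1 library left out. Compared among themselves, with library sizes taken from the members alone (an alternative chosen after seeing the data), no member fell from HB to HE1, beside 3.11% of all tested genes, and only Rps27l rose, by 0.66 on the log2 scale (adjusted p = 0.0362), beside 29.8%. On that scale the ES to HB change had 8 falls, beside 15.6% of all genes, the 6 above with Rps21 and Rps29.

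**Figure D3:**
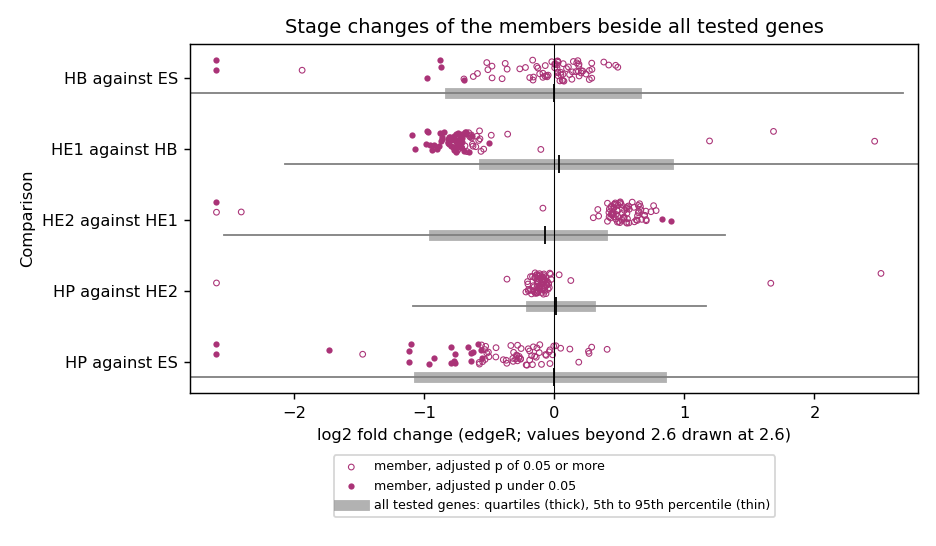
Log2 fold change of each member in the 5 comparisons, filled where the adjusted p is under 0.05, above the quartiles and the 5th to 95th percentile of all tested genes. The members lie around 0 from ES to HB, around -0.74 from HB to HE1 and around 0.51 from HE1 to HE2.

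The third comparison asked whether the set came back in HE2, the CD41+ hemogenic endothelium. The median log2 difference was 0.51 against -0.08 over all genes, and both HE2 libraries were above both HE1 libraries for 75 members, against 28.8% of all tested genes. Marker RNAs moved between these stages as well: all 5 ES markers and 2 of 4 cardiac markers fell and all 5 erythroid markers rose. Of the 8 nuclear-retained RNAs 4 fell, and the median log2 change over the 8 was -1.31. Their part in the values of the members was not tested. Only Rps21 and Rps29 rose at an adjusted p under 0.05, beside 6.12% of all genes, while 44 members were higher at an unadjusted p under 0.05, beside 15.7%. That count also turned on single libraries. In either direction 46 members passed it, fewer without either HE1 library or HE2 replicate 2, and more without HE2 replicate 1 or any HB or HP library. The median log2 difference lay between 0.43 and 0.63 with any 1 library left out. Rps21, a small-subunit gene that also has a TOP start, was at 96.2 and 99.0 CPM in HE1 and at 161 and 184 CPM in HE2, a log2 fold change of 0.82 ± 0.24 (adjusted p = 0.0497). Rps29, a small-subunit gene whose protein binds zinc, was at 140.1 and 124 CPM in HE1 and at 225 and 267 CPM in HE2 (0.90 ± 0.26, adjusted p = 0.0491). Rpl36a and Rpl22 came next at 0.78 and 0.76, with adjusted p of 0.0877 and 0.0654. The calls of Rps21 and Rps29 lay close to the threshold. The number of rises was 59 with no filter on low counts and 14 by DESeq2, but 0 with only the 4 libraries compared or with the replicate number as a block. Rps21 and Rps29 were also not called without HE2 replicate 2, without HE1 replicate 2, or without either ES library.

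Only Rpl10l fell from HE1 to HE2, beside 7.12% of all genes, from 63 counts to 1. The ratio was 75 with an exact interval from 13.0 to 3008 (counting error only). The fall of Rpl10l was not called by limma-voom, without HE1 replicate 2 or without either HE2 library. Besides Rpl10l, the low-count paralogues Rpl3l and Rpl39l were below 0 without passing the test, at log2 differences of -3.66 and -2.41, as was Rpl29, at 5.17 and 6.37 CPM in HE1 and at 4.11 and 6.76 CPM in HE2.

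The fourth comparison, HP against HE2, gave no call among the members or elsewhere. By edgeR 0 members were called in either direction, as were 0% of all genes higher and 0% lower, and no member had an unadjusted p under 0.05, against 2.97% of all genes higher and 4.93% lower. limma-voom and DESeq2 also called no member, while over all genes limma-voom called 39 higher and 27 lower and DESeq2 154 higher and 311 lower. The median log2 difference of the members was -0.11, but -0.47 without HP replicate 1 and 0.17 without HP replicate 2, and its sign was therefore not settled. The median SE was 0.23 here and from HE1 to HE2, where 46 members had an unadjusted p under 0.05 by edgeR but few were called. Changes of that size in single members were thus not well resolved at the adjusted threshold in either comparison. The HP and HE2 libraries overlapped for Rpl4, which was at 1558 and 1155 CPM in HP and at 1265 and 1535 CPM in HE2.

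The last comparison set the ends of the path side by side, HP against ES. It shares its libraries with the comparisons above and is no separate evidence. Of the members 20 fell, 12 of the large and 8 of the small subunit, beside 27.5% of all tested genes, and the median log2 fold change was -0.31 against -0.01 over all genes. None rose at an adjusted p under 0.05, beside 24.1% of all genes, or at an unadjusted p under 0.05, beside 27%, and limma-voom and DESeq2 called none higher, whereas 1 rose with no filter on low counts and 1 without HP replicate 2. Both HP libraries were below both ES libraries for 42 members, against 41.7% of all genes. The share of members that fell was thus no larger than the share of all genes. Marker RNAs differed between ES and HP too. All 5 erythroid markers and 2 of 4 smooth muscle markers rose, 2 of 4 cardiac markers rose and 1 fell, and all 5 ES markers fell. Their part in the values of the members was not tested.

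Beside Rpl10l and Rpl39l, the largest falls among the members called were those of Rpl29, Rpl30, Rps27 and Rpl10. Rpl29, a gene of low counts here, was at 14.6 and 13.5 CPM in ES and at 4.61 and 3.81 CPM in HP (-1.74 ± 0.28, adjusted p = 0.000481). Rpl30 was at 153 and 115 CPM in HP (-1.12 ± 0.19, adjusted p = 0.000646). Rps27 was at 347 and 338 CPM in ES and at 189.7 and 126 CPM in HP (-1.12 ± 0.24, adjusted p = 0.00298). Rps12, host of Snord100 described below, was at 477 and 474 CPM in ES and at 305 and 194 CPM in HP (-0.93 ± 0.25, adjusted p = 0.0105). The other called members were Rpl3, Rpl10a, Rpl18, Rpl21, Rpl34, Rpl37, Rpl39, Rps4x, Rps13, Rps21, Rps24, Rps28 and Rps29.

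Members at the other end were Rpl27, Rpl19, Rpl38 and Rpl32, at log2 differences of 0.40, 0.29, 0.27 and 0.26 with adjusted p of 0.181 to 0.414. Scaled to the members alone, these 4 were called higher in HP than in ES, beside 27% of all genes, and 8 members lower, beside 17.2%: Rpl10, Rpl10l, Rpl29, Rpl30, Rpl39l, Rps4x, Rps12 and Rps27. Rpl27 was at 401 and 249.8 CPM in HP against 249 and 243 CPM in ES, and Rpl30 at 153 and 115 against 293 and 290.0 CPM, so the balance between these 2 large-subunit genes differed between the stages in every library. The count of falls was 39 without HP replicate 1, 6 without HP replicate 2 and 8 without either ES library.

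In HB, HE2 and HP the 2 libraries of a stage differed by a shift of nearly the whole set. From replicate 1 to replicate 2 the median log2 difference of the members was -0.04 for ES, 0.50 for HB, 0.03 for HE1, 0.20 for HE2 and -0.65 for HP, where the median over all genes lay between -0.03 and -0.00. In HB 76 of 79 members were higher in replicate 2, in HE2 75 were, and in HP 77 were lower. In ES 69 were lower in replicate 2, although the median difference of -0.04 was small. In HE1 41 were higher in replicate 2 and 38 in replicate 1, but with total counts in place of TMM 75 were higher in replicate 2 (median 0.28), so whether HE1 shifted too depends on the scaling. The shifts of 0.50 between the HB libraries and -0.65 between the HP libraries stand beside the -0.74 between the stages HB and HE1. Around the shift the members were tight, with a median absolute deviation of 0.091 in HB and 0.065 in HP against 0.23 and 0.32 over all genes. The tested genes were not matched to the members for level, and the part of level in this contrast was not tested.

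**Figure D4:**
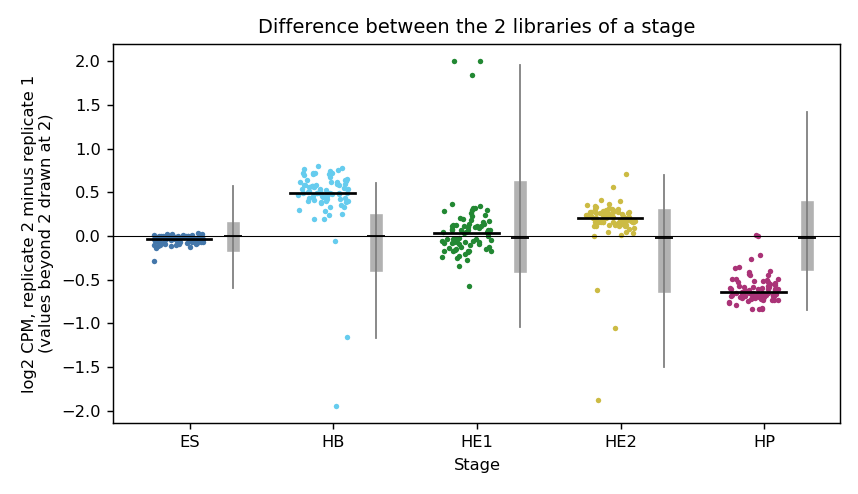
Difference between the 2 libraries of each stage on the log2 CPM scale, replicate 2 minus replicate 1, with a point per member, a bar at the members' median and, in grey, the quartiles and the 5th to 95th percentile of all tested genes. The members' medians are 0.50 in HB and -0.65 in HP while those of all genes are near 0.

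Other RNAs moved with this shift. Malat1, a long RNA kept in the nucleus, was at 4296 and 3863 CPM in the HB libraries, 6029 and 2699 in HE2 and 4004 and 5779 in HP, so it was lower in the library with more ribosomal protein RNA in these 3 stages. In HE1 Malat1 was at 5325 and 8784 CPM, where the members' median differed by 0.03 with TMM and by 0.28 with total counts in place of TMM. The 291 named ribosomal protein pseudogenes summed to 1220 and 1877 CPM in HB and to 1591 and 1005 CPM in HP and so followed the members. All 37 mitochondrially encoded genes had 0 counts in every library, so they give no measure of cytoplasmic RNA. The part of the nuclear enrichment in the shift was not tested.

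Over the 10 libraries the SD of a member's log2 CPM had a median of 0.36, against 0.69 over all tested genes, which again were not matched for level. After subtracting each library's median member, the median SD was 0.13. Rps9 followed the set most closely with an SD of 0.03: it was at 679 and 651 CPM in ES, with HB at 581 and 818, HE1 at 417 and 411, HE2 at 565 and 653, and HP at 708 and 441. Rps7, Rpl7, Rpl24, Rpl8 and Rps16 were at 0.04 to 0.06. The largest values were those of Rpl10l at 3.73, Rpl39l at 3.14, Rpl3l at 1.52, Rpl29 at 0.61, Rpl30 at 0.40 and Rpl10 at 0.38.

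The mean absolute log2 difference between libraries of a stage was largest for the 3 low-count paralogues Rpl10l (1.36), Rpl3l (1.23) and Rpl39l (0.82), followed by Rpl41 (0.43) and Rps28 (0.42). Rpl41, which encodes the shortest ribosomal protein, was at 524 and 793 CPM in HB and at 723 and 406 CPM in HP. Rps15a had the smallest difference, 0.16, with 302 and 412 CPM in HB and 296 and 253 CPM in HP.

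The 8 Diamond-Blackfan members considered (Rps7, Rps10, Rps19, Rps24, Rps26, Rpl5, Rpl11 and Rpl35a) were not called from ES to HB, where 22.6% of all tested genes fell and 17.8% rose, from HE1 to HE2, where 7.12% fell and 6.12% rose, or from HE2 to HP, where 0% were called. From HB to HE1 6 of the 8 fell, beside 14.8% of all tested genes, with a median log2 change of -0.76 over the 8. From ES to HP only Rps24 fell, beside 27.5%. Rps19, the gene most often mutated in the disease, was at 426 and 434 CPM in ES, with HB at 363 and 512, HE1 at 277 and 299, HE2 at 349 and 359, and HP at 392 and 262. Its log2 difference from HB to HE1 was -0.61 ± 0.21 and missed the threshold (adjusted p = 0.0522), as did that of Rps7. RPL5 and RPL11 bind MDM2 and so join ribosome production to p53. Rpl5 was at 595 and 839 CPM in HB and at 449 and 400.0 CPM in HE1 (-0.76 ± 0.22, adjusted p = 0.0225), and Rpl11 was at 334 and 493 CPM and at 247 and 268 CPM (-0.68 ± 0.23, adjusted p = 0.0455).

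Ribosomal genes that the naming rule leaves out were also lower in part. Of 7 (Rplp0, Rplp1 and Rplp2 of the stalk, Rpsa, Fau, Rack1 and Rpl36al), 3 fell from HB to HE1, Rplp2, Rpsa and Fau, and the median was -0.62, where 14.8% of all tested genes fell and 17.5% rose. Of 16 translation factor and other TOP genes, 8 fell, and the median over the 16 was -0.58. Of 32 ribosome biogenesis genes, which serve rRNA transcription and particle assembly, 23 fell and none rose, with a median of -0.66 over the 32. From HE1 to HE2 5 of them rose, beside 6.12% of all genes. Npm1, a nucleolar chaperone, was at 2088 and 2754 CPM in HB and at 1310 and 1076 CPM in HE1 (-1.02 on the log2 scale, adjusted p = 0.00944). Of 106 pseudogenes with enough counts to be tested, 14 fell and none rose from HB to HE1, with a median of -0.68 over the 106. The share that fell was no larger than the 14.8% of all genes. Fragments of a member and of its processed copies cannot be told apart with certainty.

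The introns of the members gave a pattern of their own. In 22 members the count tables hold 31 genes named Snord or Snora on the same strand, 22 of them box C/D (Snord) and 9 box H/ACA (Snora). SnoRNA genes with other names were not searched for, so further members may hold one. Box C/D snoRNAs guide 2′-O-methylation and box H/ACA snoRNAs guide pseudouridylation of rRNA, and both are cut from the spliced intron of the host. Snord33 is shown as the snoRNA with the most counts, and Snord100 and Snora70 as examples inside hosts that fell in at least 1 comparison. In capitals are box C (TGATGA, searched in the first 25 bases) and box D (CTGA, last 25 bases) of the Snord sequences and the ACA that ends 3 bases before the 3′ end of the Snora, all read on the RNA strand as DNA letters from GENCODE M21 (GRCm38).
Snord33 in Rpl13a (chr7:45126864-45126947, minus strand): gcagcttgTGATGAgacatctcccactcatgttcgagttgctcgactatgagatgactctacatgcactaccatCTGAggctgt
Snord100 in Rps12 (chr10:23785750-23785823, minus strand): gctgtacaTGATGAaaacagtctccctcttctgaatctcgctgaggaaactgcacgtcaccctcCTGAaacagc
Snora70 in Rpl10 (chrX:74272484-74272620, plus strand): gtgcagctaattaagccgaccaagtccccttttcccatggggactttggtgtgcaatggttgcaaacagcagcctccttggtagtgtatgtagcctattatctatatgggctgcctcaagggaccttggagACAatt
Both boxes were found in 13 of 21 intronic Snord with a sequence, against 72.4% of 98 Snord transcripts of GENCODE, and the ACA in 9 of 9 intronic Snora, against 76.2% of 42.

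From ES to HB 19 of the 31 snoRNAs fell, beside 22.6% of all tested genes. The median log2 fold change over the 31 was -0.93, where the median of their 22 hosts was 0.03. From HB to HE1 22 fell, beside 14.8% of all genes (median -1.12, hosts -0.76), and from ES to HP 29 fell, beside 27.5% (median -1.98, hosts -0.31). None was called from HE1 to HE2 or from HE2 to HP, and none rose in any comparison. The 8 nuclear-retained RNAs summed to 11187 and 11474 CPM in ES, 5338 and 4557 in HB, 6313 and 10176 in HE1 and 4370 and 6448 in HP. Their median log2 changes were -1.18 from ES to HB (3 of 8 fell) and -1.85 from ES to HP (5 of 8 fell). Between HB and HE1 the median was 0.40, where 2 of 8 rose, beside 17.5% of all genes, and none fell. The relation of these RNAs to the snoRNAs was not tested. In HP against ES all 31 were below their host, with a median difference of -1.60 on the log2 scale, whereas in HP against HE2 only 2 were below it and the median difference was 0.30. The difference between a snoRNA and its host was not tested gene by gene.

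Snord100, in an intron of Rps12, was at 27.0 and 27.6 CPM in ES, with HB at 7.14 and 6.06, HE1 at 3.45 and 3.01, HE2 at 3.50 and 3.02, and HP at 3.99 and 4.23. The libraries of ES and HB did not overlap (-2.05 ± 0.22, adjusted p = 5.32e-05), while Rps12 itself was at -0.59 ± 0.25 (adjusted p = 0.0862). Snora70 in Rpl10 was at 21.4 and 22.2 CPM in ES and at 7.54 and 5.58 CPM in HB (-1.73 ± 0.42, adjusted p = 0.00707). Snord33 in Rpl13a was at 61.5 and 59.0 CPM in ES, with HB at 45.4 and 26.5, and HP at 13.9 and 22.3, with a fall from ES to HP of -1.74 ± 0.39 (adjusted p = 0.0035). In HB and HP it was lower in the library where the members were higher. Host fragments that cross a snoRNA were counted on both, and 17 of the 31 overlap an annotated exon of the host, such as that of a retained-intron transcript. Snord100, Snora70 and Snord33 are among these 17, so their values can include fragments of the host. The libraries were not made for RNAs of this length, and the part of fragment size selection in these values was not tested.

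**Figure D5:**
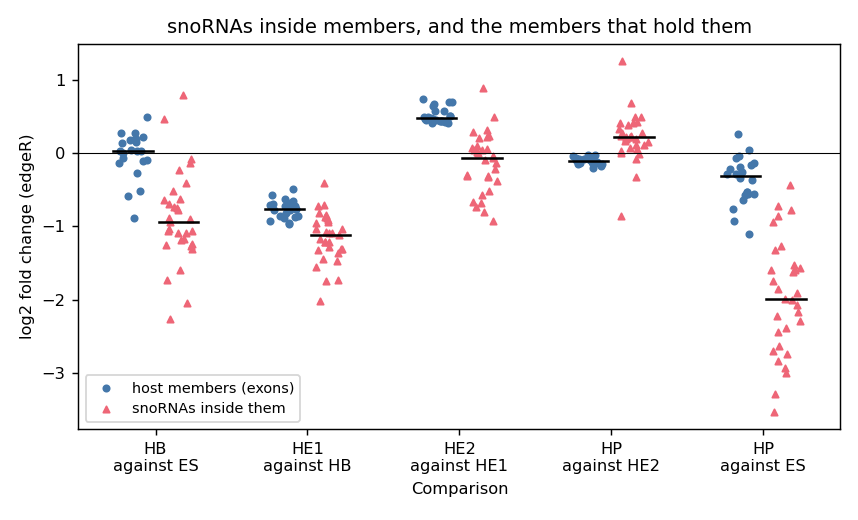
Log2 fold change in the 5 comparisons of the 31 snoRNAs inside members (triangles) and of the 22 members that hold them (circles), with bars at the medians. In HP against ES the snoRNAs have a median of -1.98 and the hosts of -0.31.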

How the data were processed

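Per the labels and the methods of the study, reads of nuclear-enriched, rRNA-depleted, strand-specific libraries were filtered for rRNA, trimmed with Trimmomatic and aligned to mm10 with HISAT2 2.2.1. The authors deposited count tables made by featureCounts 2.0.1 on Ensembl GRCm38 release 102, in whole fragments per gene, counting a fragment on every gene it overlaps. A deposited matrix of mean CPM (a score here, its scale not checked) gave only the gene names and the set. Column sums gave the depth, and intervals cover counting error only.

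Genes were filtered by expression (filterByExpr) and scaled by TMM, and stages were compared in 1 edgeR 4.0.16 quasi-likelihood fit of all 10 libraries, with Benjamini-Hochberg adjustment over 22596 genes. An adjusted p under 0.05 was a call. limma 3.58.1 and DESeq2 1.42.0 were alternatives. The members, gene lists and tests were chosen with earlier results of these data known. Genes were named by a rule: per comparison the 4 largest rises and falls, paralogue pairs, Diamond-Blackfan genes, the extremes per kb and of library spread, and genes outside the naming rule. A few genes of these lists are not reported here. The scripts were tested on simulated data.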

Additional observations from a re-analysis of the deposited data

How the results depend on the processing

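The median change of the members kept its sign in the 5 comparisons under limma-voom, DESeq2, total counts, sizes without the members, no filter, only the 4 libraries and only matrix genes, and under these settings no called member changed direction, although Rpl10l from HE1 to HE2 was not tested with only the 4 libraries. With total counts 2 members rose from ES to HB and 1 from HE1 to HE2. With no filter on low counts 3 rose and 13 fell from ES to HB, 2 rose from HB to HE1, 59 rose and 2 fell from HE1 to HE2, and 1 rose from ES to HP. With only the 4 libraries compared 3 rose and 13 fell from ES to HB, and 0 rose and 0 fell from HE1 to HE2. From HE1 to HE2 DESeq2 called 14 rises and 2 falls and limma-voom 0 falls. Of the members called, 5 of 6, 37 of 53, 0 of 3 and 16 of 20 were called under every planned setting that left out no library (HB against ES, HE1 against HB, HE2 against HE1 and HP against ES).

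With 1 library left out, rises and falls ranged from 0 to 1 and 2 to 11 (HB against ES), 0 to 2 and 2 to 71 (HE1 against HB), 0 to 6 and 0 to 2 (HE2 against HE1), and 0 to 1 and 6 to 39 (HP against ES). The median of the members ranged from -0.28 without HB replicate 2 to 0.27 without HB replicate 1 (HB against ES) and from -0.47 to 0.17 without the HP libraries (HP against HE2), so neither had a stable sign.

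The replicate number as a block gave 0 rises from HE1 to HE2, 38 falls from HB to HE1 and 16 from ES to HP. Same-numbered libraries deviated with correlations from -0.32 to 0.21 between stages. These values cannot tell whether such libraries share a culture or batch, which the labels do not give.

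Scaled to the members alone (added after seeing the data), the median was 0.00066 from HB to HE1 and -0.010 from HE1 to HE2. On that scale 1 rose and 0 fell from HB to HE1, 0 rose from HE1 to HE2, and 4 rose and 8 fell from ES to HP. By its construction it turned falls from HB to HE1 into values above 0, among them Rpl11 0.063, Rpl13 0.047, Rpl18 0.026, Rpl24 0.11, Rpl30 0.027, Rpl32 0.020, Rpl4 0.017, Rpl6 0.00066, Rpl7 0.012, Rpl7l1 0.21, Rps15 0.0025, Rps2 0.020 and Rps3a1 0.037. Over matrix genes only, the share was 3.71% in ES and 3.20% in HE2. With total counts the replicate difference was 0.28 in HE1 and -0.52 in HP.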

Other observations

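Of the 79 members 4 are X-linked, Rpl10, Rpl36a, Rpl39 and Rps4x, a grouping chosen after their values were seen. Rpl10 and Rps4x were among the 6 members that fell from ES to HB, where 22.6% of all tested genes fell. Rpl39 was at 269.7 and 269 CPM in ES and at 144 and 234 CPM in HB, a log2 difference of -0.51 ± 0.25 (adjusted p = 0.136 by edgeR), and Rpl36a was at 184 and 183 CPM in ES and at 146 and 245 CPM in HB (0.09 ± 0.29). The median from ES to HB was -0.60 in the 4 and 0.02 in the 75 autosomal members. From HB to HE1 the medians were -0.77 and -0.74, and 2 of 4 and 51 of 75 fell, beside 14.8% of all genes. From ES to HP 3 of 4 and 17 of 75 fell, with medians of -0.87 and -0.30, beside 27.5% of all genes. The difference between the groups was not tested.

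In the paralogue pairs the X-linked partners were still well detected in HB, Rpl10 at 419 ± 92.8 CPM in HB against 772 ± 2.7 in ES (mean ± SD, n = 2) and Rpl39 at 189 ± 63.8 against 269 ± 0.476, where the autosomal Rpl10l and Rpl39l were at or near 0. Rpl22 and Rpl22l1 were both below 0 from HB to HE1, at -1.09 ± 0.25 and -0.64 ± 0.25 on the log2 scale, although only Rpl22 passed the test (adjusted p = 0.0782 for Rpl22l1). The difference between them was not tested.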
